A study of Mus musculus with 6 samples.

Results

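The nuclear-encoded genes of the mitochondrial respiratory chain and of the ATP synthase were followed in cultured mouse lung fibroblasts with and without 4-hydroxytamoxifen (4OHT), the active metabolite of tamoxifen. Members were taken by symbol, as probe sets annotated to 1 gene whose name begins with Ndufa, Ndufb, Ndufc, Ndufs, Ndufv, Sdha to Sdhd, Uqcr, Cox4 to Cox8 or Atp5, leaving out pseudogene symbols. The rule gave 91 of the 22180 genes tested, of which 79 encode subunits and 12 encode assembly factors that share the Ndufa and Sdha stems. The 79 subunit genes comprised 32 of complex I, 4 of complex II, 7 of complex III, 19 of complex IV and 17 of the ATP synthase, also called complex V. Ndufa4 and Ndufa4l2 were counted with complex IV, where the Ndufa4 protein sits. Of 113 matching probe sets, 10 carried several symbols and 2 carried a pseudogene symbol, and these were left out. As a result Ndufs6, Ndufb2, Ndufb4, Uqcr10 and Cox6c were not analysed here.

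The arrays were hybridised with RNA from primary fibroblasts of adult mouse lung, of mixed strain, grown in DMEMF12 with 10% FCS and passaged at most 3 times. All cells, controls included, carried UBCCreERT, a tamoxifen-inducible Cre recombinase driven by the ubiquitous ubiquitin C promoter, together with RSmoM2, a Cre-dependent allele of SmoM2. SmoM2 encodes Smoothened, the membrane protein that transmits the hedgehog signal, with a change that keeps it active without ligand. 3 wells received vehicle and 3 received 1 µg/ml 4OHT for 48 h, each well giving 1 array, so the drug, the active Cre and the activated allele differed together and cannot be told apart. The wells were divided from isolated cells and nothing in the labels places them in separate animals, so the p-values rest on well-to-well spread alone, and that spread may be technical.

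The respiratory chain passes electrons from NADH (complex I) and succinate (complex II) through coenzyme Q, complex III and cytochrome c to oxygen at complex IV. Complexes I, III and IV pump protons as they do so, and the ATP synthase uses the returning protons to make ATP. Most subunits are encoded in the nucleus and imported, while a small core of complexes I, III, IV and V is encoded in mitochondrial DNA. Transcription of the nuclear genes is known to depend on factors such as NRF1, GABP, YY1 and ERR alpha with the coactivators of the PGC-1 family, and several complex IV subunits exist as isoforms used in muscle, heart, lung or testis.

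3 subunit genes passed the test across all genes, and all 3 were lower with 4OHT: Ndufa5 of complex I, Uqcrc1 of complex III and Cox7a1 of complex IV. Their promoter windows are shown because they are the only subunit genes called. Each runs from 250 bases before to 50 bases after the transcription start in RefSeq on GRCm38.p6, 5′ to 3′ on the strand of the gene. The windows lie at chr6:24527477-24527776 on the minus strand for Ndufa5, the first listed of its 2 starts, chr9:108936398-108936697 on the plus strand for Uqcrc1 and chr7:30183921-30184220 on the plus strand for Cox7a1. Capitals mark matches to the searched motifs given below. The window of Cox7a1, which held no match, reads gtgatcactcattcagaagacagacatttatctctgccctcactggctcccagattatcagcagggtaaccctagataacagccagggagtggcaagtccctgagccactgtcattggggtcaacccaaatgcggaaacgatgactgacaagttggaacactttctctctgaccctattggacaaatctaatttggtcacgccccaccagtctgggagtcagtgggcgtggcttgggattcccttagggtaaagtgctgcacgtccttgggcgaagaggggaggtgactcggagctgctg.
Ndufa5: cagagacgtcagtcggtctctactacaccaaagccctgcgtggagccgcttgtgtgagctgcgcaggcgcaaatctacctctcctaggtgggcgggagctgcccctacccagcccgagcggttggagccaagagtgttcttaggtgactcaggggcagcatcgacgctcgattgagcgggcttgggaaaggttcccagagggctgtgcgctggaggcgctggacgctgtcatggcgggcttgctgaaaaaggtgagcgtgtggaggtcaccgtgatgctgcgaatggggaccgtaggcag
Uqcrc1: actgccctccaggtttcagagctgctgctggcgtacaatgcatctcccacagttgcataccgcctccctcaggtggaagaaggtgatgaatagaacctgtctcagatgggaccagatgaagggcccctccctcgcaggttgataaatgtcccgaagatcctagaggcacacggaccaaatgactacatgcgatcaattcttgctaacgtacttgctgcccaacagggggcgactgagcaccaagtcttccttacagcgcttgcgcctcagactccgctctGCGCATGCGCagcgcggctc
@0.0543ox7a1

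The 3 windows held 62.3%, 56.3% and 53.0% G and C for Ndufa5, Uqcrc1 and Cox7a1. 4 motifs were searched on both strands in the same window of 27025 genes, of which 65 of the 79 subunit genes had an entry. The NRF1 motif GCGCATGC was present in 10 of the 65 subunit promoters (15.4%) and in 3.05% of all promoters. The ETS motif CCGGAAG, recognised by GABPA and related factors, was present in 17 (26.2%) against 9.93% of all promoters. The YY1 motif AAGATGGC was found in 9 (13.8%) against 3.19%, and the ERR alpha motif TCAAGGTCA in 2 (3.08%) against 0.466%. Uqcrc1 held the NRF1 motif in 2 overlapping matches on opposite strands, starting at bases 31 and 33 after the start and marked above as 1 run of capitals. Ndufa5 and Cox7a1 held none of the 4 motifs in these windows. The median log2 fold change was -0.07 for subunit genes with the NRF1 motif and -0.03 for those without it. With and without the ETS motif the medians were -0.06 and -0.03, and with and without the YY1 motif they were -0.04 and -0.04. These shares and medians describe letters in a window and carry no test.

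Over the 79 subunit genes the difference between 4OHT and vehicle was small and mostly below zero. The median log2 fold change, 4OHT minus vehicle, was -0.03, against -0.01 for all genes tested, and 57 subunit genes (72.2%) lay below zero against 51.4% of all genes. Centring the arrays on their medians left 48 subunit genes (60.8%) and 44.9% of all genes below zero, and a second quantile normalization left 49 (62.0%) and 48.8%. Single subunits ranged from -0.46 for Uqcrc1 to 0.35 for Cox8b. By limma with Benjamini-Hochberg adjustment over all genes at an adjusted p under 0.05, 3 of 79 (3.8%) were called lower and 0 higher, while 12.0% of all genes were called in either direction and 6.62% were called lower. At an unadjusted limma p under 0.05, 18 subunit genes were lower and 3 higher, against 3152 lower and 2706 higher of the 22180 genes. Among the 11090 genes above the median level 2346 were lower and 1928 higher. These are the backgrounds for the unadjusted counts given below. At this threshold the share of subunits lower was above that of all genes, and the share higher was below it. Against genes above the median level the share of subunits lower was near the background, and the share higher was again below it. At an adjusted p under 0.05 the share called among the subunits was below the background share. The difference from the background was wider when the comparison was made at like signal, since 72 of the 79 subunits lay above the median level of all genes and 19.9% of such genes were called.

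Values of the 3 vehicle wells all lay above those of the 3 4OHT wells for 19 subunits (24.1%), and the reverse held for 3. Over all genes 17.8% had 4OHT wholly below vehicle, and 32.7% had no overlap in either direction, against 27.8% of the subunits. Among genes above the median level, where 72 of the 79 subunits lay, the shares were higher, 27.3% wholly below and 49.4% without overlap. The subunits lay near the first of these shares and below the second. The intervals bound how far the subunits moved. The 95% interval of the fold change lay within 1.5-fold in either direction for 77 of the 79 subunits and within 1.2-fold for 55. The estimate exceeded 1.2-fold for 5 subunits (6.33%) against 12.1% of all genes, and it exceeded 1.5-fold for 0 subunits against 486 of the 22180 genes.

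**Figure D1:**
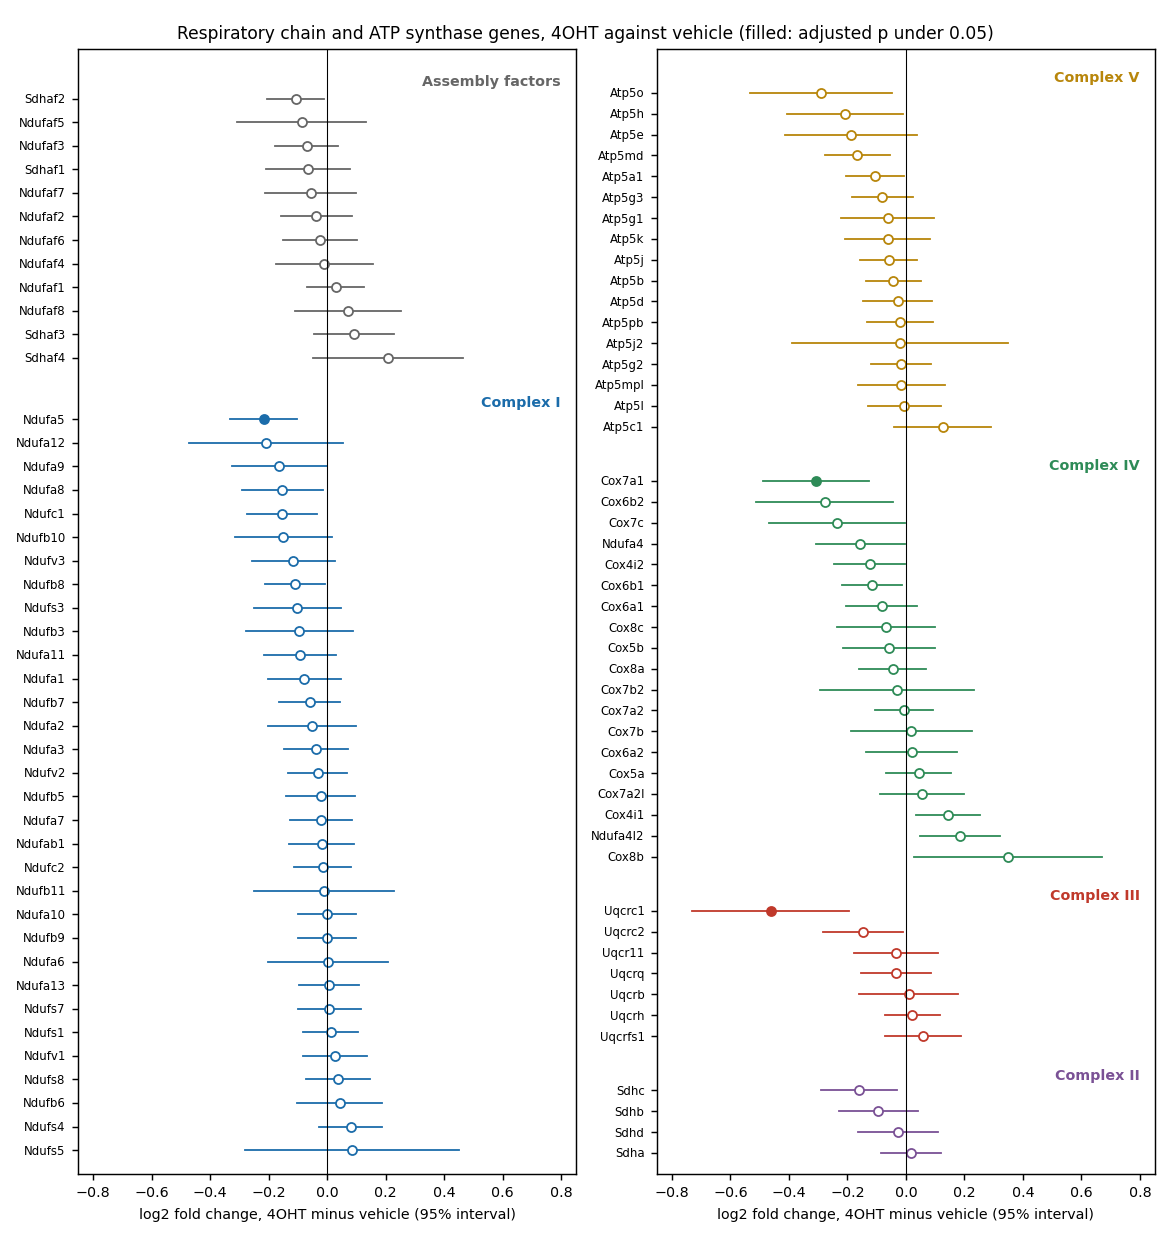
Log2 fold change (4OHT minus vehicle) of each of the 91 genes with its 95% interval from limma, grouped by complex, with filled points for an adjusted p under 0.05. Points cluster near zero, and Ndufa5, Uqcrc1 and Cox7a1 are the 3 filled points, all to the left.

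The number of subunits called depended on which genes entered the fit and on how the spread of a gene was estimated. When limma was fitted only to genes above the median level, 14 of the 72 subunits in that fit passed (19.4%), 12 lower and 2 higher, and the share of all genes in that fit was 35.0%. Under eBayes with a trend and robust variances 13 of 79 passed (16.5%), 11 lower and 2 higher, against 18.6% of all genes. Each of these sets held Ndufa5, Uqcrc1 and Cox7a1. The genes added by both fits were Atp5a1, Atp5md, Cox6b1, Cox6b2, Ndufa8, Ndufc1 and Sdhc, which were lower, and Cox4i1 and Ndufa4l2, which were higher. In neither fit did the subunits reach the share called among all genes.

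For complex I, which oxidises NADH and passes the electrons to coenzyme Q, the median log2 fold change over 32 genes was -0.03, and 1 gene was called. The called gene was Ndufa5, an accessory subunit of the matrix arm. Its log2 expression was 8.87, 8.82 and 8.92 in the vehicle wells and 8.69, 8.61 and 8.65 in the 4OHT wells. The 4OHT wells all lay below the vehicle wells, and the wells of each group were close together. Ndufa5 fell by 0.22 in log2 units (SE 0.048, n = 3 per group, adjusted p = 0.0319), a level 1.16-fold higher in vehicle. With any 1 array left out its log2 fold change stayed between -0.24 and -0.19, but the adjusted p was 0.0640 to 0.116, so the call was lost in each of the 6 fits.

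Ndufa12 and Ndufa9, further accessory subunits of the matrix arm, had the next largest differences in complex I. Ndufa12 read 8.75, 8.86 and 8.44 in vehicle and 8.45, 8.42 and 8.55 in 4OHT. Vehicle well 3 lay among the 4OHT wells, so the groups overlapped, and the log2 fold change was -0.21 (SE 0.11, adjusted p = 0.290). Without vehicle well 3 it was -0.33 and passed the test (adjusted p = 0.0386), and without vehicle well 2 it was -0.12. Ndufa9 read 11.27, 11.20 and 11.22 against 10.96, 11.05 and 11.20, with the groups just separate and a log2 fold change of -0.16 (adjusted p = 0.187). 4OHT well 3 was close to the vehicle wells, and without 4OHT well 1 the log2 fold change was -0.11.

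The 6 core subunits of complex I, which carry or surround the flavin and iron-sulphur centres, had a median log2 fold change of 0.01. Of these, 4 of 6 lay above zero and all 6 groups of wells overlapped. They were Ndufs1, Ndufs3, Ndufs7, Ndufs8, Ndufv1 and Ndufv2, with fold changes from -0.10 for Ndufs3 to 0.04 for Ndufs8. The 26 accessory subunits had a median of -0.04, with 20 below zero, or 16 under either other scaling. No test of the difference between core and accessory subunits was made. By position, the 14 matrix-arm genes had a median of -0.03 and the 17 membrane-arm genes -0.04, with Ndufab1, the acyl carrier protein found in both arms, at -0.02.

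All 4 genes of complex II, succinate dehydrogenase, were measured, and 0 were called (1 at an unadjusted limma p under 0.05). The catalytic subunits are Sdha, which holds the flavin and oxidises succinate, and Sdhb, which holds the iron-sulphur centres. Sdha read 11.48, 11.48 and 11.43 in vehicle and 11.47, 11.46 and 11.52 in 4OHT, with a log2 fold change of 0.02 (95% interval -0.09 to 0.12). The values of its groups were mixed together. For Sdhb, whose wells also overlapped, the log2 fold change was -0.09 (SE 0.057, adjusted p = 0.349).

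The membrane anchors Sdhc and Sdhd bind coenzyme Q. Sdhc read 11.19, 11.16 and 11.25 in vehicle and 10.96, 11.04 and 11.11 in 4OHT. Each 4OHT well lay below each vehicle well, with a log2 fold change of -0.16 (SE 0.054, adjusted p = 0.115). Sdhd wells overlapped, at a log2 fold change of -0.03 (95% interval -0.17 to 0.11).

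Complex III passes electrons from reduced coenzyme Q to cytochrome c, and the median log2 fold change of its 7 genes was -0.03. Its large core proteins, Uqcrc1 and Uqcrc2, face the matrix and are related to mitochondrial processing peptidase. Uqcrc1 read 12.21, 12.17 and 12.06 in vehicle and 11.48, 11.65 and 11.92 in 4OHT. The 4OHT wells were all lower but spread over a wider range than the vehicle wells, with an SD of 0.224 against 0.0756. Uqcrc1 fell by 0.46 in log2 units (SE 0.11, adjusted p = 0.0437), a level 1.38-fold higher in vehicle and the largest difference of the 79 subunits in either direction.

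The call on Uqcrc1 rested on all wells but 4OHT well 3, and a second quantile normalization ended it (adjusted p = 0.0516). Without that well its log2 fold change was -0.58 and the adjusted p 0.0113, and without any other array the adjusted p lay between 0.0772 and 0.133. Uqcrc2 read 12.14, 12.19 and 12.19 against 11.94, 12.02 and 12.12, with the groups separate and a log2 fold change of -0.15 (SE 0.058, adjusted p = 0.166). For both core proteins 4OHT well 3 was the 4OHT well nearest to vehicle.

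The other genes of complex III showed smaller differences. Uqcrfs1, the Rieske iron-sulphur protein, read 8.71, 8.84 and 8.82 in vehicle and 8.79, 8.89 and 8.85 in 4OHT, with overlapping groups and a log2 fold change of 0.06 (adjusted p = 0.568). The 4 small supernumerary subunits lay between -0.03 and 0.02, with every pair of groups overlapping. Cyc1, cytochrome c1, falls outside the symbol rule and stood at a log2 fold change of -0.03 (adjusted p = 0.645).

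Complex IV, cytochrome c oxidase, contributed 19 genes, with a median log2 fold change of -0.04, 12 below zero and 1 called. Cox7a1, the isoform of subunit VIIa used in heart and skeletal muscle, read 8.06, 8.24 and 8.16 in vehicle and 7.76, 7.80 and 7.98 in 4OHT. The groups did not overlap, and 4OHT well 3 was again the nearest to vehicle. Cox7a1 fell by 0.31 in log2 units (SE 0.076, adjusted p = 0.0471), a level 1.24-fold higher in vehicle. Without 4OHT well 3 the log2 fold change was -0.37 and the adjusted p 0.0290, and without any other array the adjusted p lay between 0.0599 and 0.148. Centring each array on its median also ended the call (adjusted p = 0.0593).

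The more widely used isoform Cox7a2 read 12.18, 12.18 and 12.20 in vehicle and 12.14, 12.19 and 12.20 in 4OHT, with a log2 fold change of -0.01 (95% interval -0.11 to 0.09). Its groups overlapped throughout. The related Cox7a2l, a factor that joins complexes III and IV into supercomplexes, stood at a log2 fold change of 0.06 (adjusted p = 0.623). The difference between the changes of Cox7a1 and Cox7a2 was not itself tested.

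Subunit IV, which binds ATP and tunes the activity of the oxidase, has a widespread isoform, Cox4i1, and one known from lung and from hypoxia, Cox4i2. Cox4i1 read 11.26, 11.24 and 11.33 in vehicle and 11.41, 11.41 and 11.45 in 4OHT. All 4OHT wells lay above all vehicle wells, with a log2 fold change of 0.14 (SE 0.046, adjusted p = 0.0961). Cox4i2 read 8.96, 9.01 and 8.93 against 8.77, 8.88 and 8.87, so its 4OHT wells lay below vehicle, with a log2 fold change of -0.12 (SE 0.051, adjusted p = 0.180). Neither isoform passed the test.

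The other isoform pairs of complex IV gave no call. Cox6b1, the general isoform of subunit VIb, stood at a log2 fold change of -0.12 (adjusted p = 0.139), the testis isoform Cox6b2 at -0.28 (SE 0.098, adjusted p = 0.127), each without overlap between groups. Cox6b2 read 8.92, 8.93 and 8.84 in vehicle and 8.41, 8.66 and 8.79 in 4OHT, with 4OHT well 3 once more nearest to vehicle, and without 4OHT well 1 its log2 fold change was -0.17. Cox6a1 and the muscle isoform Cox6a2 had -0.08 (adjusted p = 0.356) and 0.02 (adjusted p = 0.887), both with overlapping wells. Cox8a had -0.04 (adjusted p = 0.615) and the testis isoform Cox8c -0.07 (adjusted p = 0.607).

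Cox8b, the muscle isoform of subunit VIII, had the largest positive difference of the 79 subunits. It read 6.37, 6.13 and 5.98 in vehicle and 6.75, 6.44 and 6.35 in 4OHT. 4OHT well 3 fell just below vehicle well 1, and the log2 fold change was 0.35 (SE 0.13, adjusted p = 0.157), or 0.23 without 4OHT well 1. Its mean lay below the median level of all genes, as did that of 7 of the 79 subunits.

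Ndufa4 and its paralogue Ndufa4l2, which is known to be induced by hypoxia, lay on opposite sides of zero. Ndufa4 read 10.75, 10.80 and 10.85 in vehicle and 10.58, 10.60 and 10.76 in 4OHT, overlapping through 4OHT well 3, with a log2 fold change of -0.16 (adjusted p = 0.179). Ndufa4l2 read 10.00, 10.14 and 10.08 against 10.19, 10.31 and 10.29, without overlap, with a log2 fold change of 0.19 (SE 0.057, adjusted p = 0.0909). Neither gene passed the test, and the difference between them was not tested.

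**Figure D2:**
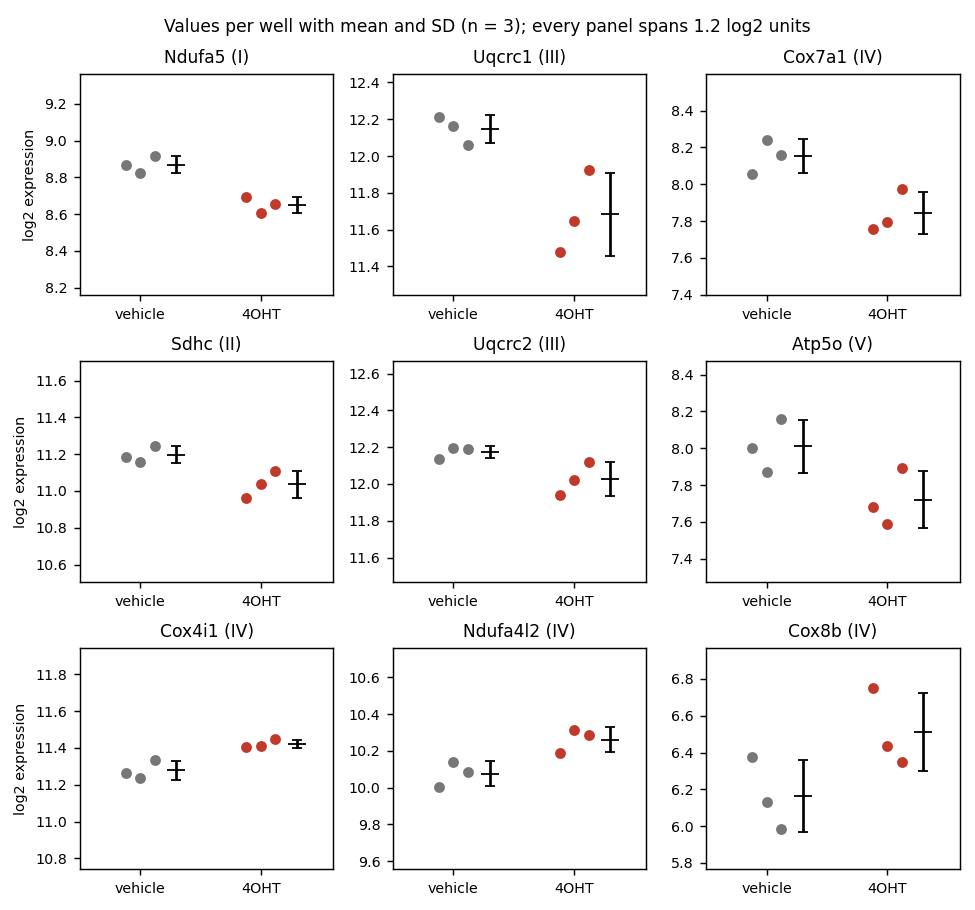
Log2 expression in each well (points in replicate order) with the group mean and SD (n = 3) for 9 subunit genes, with the complex in parentheses and the same span of log2 units in every panel. Vehicle lies wholly above 4OHT for Ndufa5, Uqcrc1, Cox7a1, Sdhc and Uqcrc2 and wholly below it for Cox4i1 and Ndufa4l2, while Atp5o and Cox8b overlap.

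Of the 17 ATP synthase genes 16 lay below zero, or 12 with centred arrays and 14 after a second quantile normalization. Their median log2 fold change was -0.06, and 0 were called (4 lower at an unadjusted limma p under 0.05). The exception was Atp5c1, the gamma subunit of the turning shaft, at 0.13 (SE 0.069, adjusted p = 0.310). The catalytic head subunits Atp5a1 (alpha) and Atp5b (beta) had log2 fold changes of -0.11 (SE 0.041, adjusted p = 0.163) and -0.04 (SE 0.039, adjusted p = 0.557). Atp5a1 read 12.36, 12.39 and 12.36 in vehicle and 12.28, 12.23 and 12.27 in 4OHT. Atp5b read 13.83, 13.82 and 13.82 against 13.80, 13.77 and 13.78. The groups of these catalytic subunits did not overlap, and the 95% interval of the log2 fold change ran from -0.20 to -0.01 for Atp5a1 and from -0.14 to 0.05 for Atp5b.

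All 12 genes of the membrane part and the peripheral stalk lay below zero in the deposited scaling, against 8 with centred arrays and 10 after a second quantile normalization. Atp5o, the peripheral-stalk subunit known as OSCP, read 8.00, 7.87 and 8.16 in vehicle and 7.68, 7.59 and 7.89 in 4OHT. The groups overlapped by vehicle well 2 and 4OHT well 3, and the log2 fold change was -0.29 (SE 0.10, adjusted p = 0.125). Atp5h, subunit d of the same stalk, read 11.86, 11.95 and 11.88 against 11.58, 11.62 and 11.87, with a log2 fold change of -0.21 (adjusted p = 0.167). 4OHT well 3 lay among the vehicle wells, and without it the log2 fold change was -0.30 and passed the test (adjusted p = 0.0275). A second, dimmer probe set of Atp5h had -0.01, and the mean of its probe sets gave -0.11 (adjusted p = 0.341).

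Atp5e, the epsilon subunit of the central stalk, had -0.19 (SE 0.094, adjusted p = 0.266), and a second, dimmer probe set of the gene had 0.12, so its direction depended on the probe set. Without 4OHT well 1 the first gave -0.10. Atp5md, a small subunit of the membrane part, had the lowest adjusted p of the complex. It read 12.72, 12.64 and 12.66 in vehicle and 12.47, 12.50 and 12.55 in 4OHT, with no overlap and a log2 fold change of -0.17 (SE 0.046, adjusted p = 0.0666). The genes Atp5g1, Atp5g2 and Atp5g3 encode the same ring-forming subunit c. Their log2 fold changes were -0.06 (adjusted p = 0.616), -0.02 (adjusted p = 0.848) and -0.08 (adjusted p = 0.298), and only Atp5g3 had separate groups. Centring the arrays turned Atp5g2 to 0.00.

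Among the 12 assembly factors taken by the symbol rule the median log2 fold change was -0.03, with 8 below zero and 0 called (1 at an unadjusted limma p under 0.05). The 8 Ndufaf genes, which build complex I, ranged from -0.09 for Ndufaf5 to 0.07 for Ndufaf8. Sdhaf2, which attaches the flavin to Sdha, read 10.64, 10.63 and 10.65 in vehicle and 10.53, 10.51 and 10.56 in 4OHT. The wells of each group were tightly grouped without overlap, and the log2 fold change was -0.11 (SE 0.041, adjusted p = 0.151). Sdhaf4, a chaperone of the flavin-bearing Sdha, read 8.86, 9.12 and 9.28 against 9.23, 9.36 and 9.29, with overlap and a log2 fold change of 0.21 (SE 0.11, adjusted p = 0.280). Without vehicle well 1 it was 0.09. Sdhaf3, which helps to mature the iron-sulphur subunit Sdhb, had 0.09 (adjusted p = 0.370).

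A further 36 genes were measured, assembly factors with other names together with factors of mitochondrial RNA and translation. Of these, 5 were called, 2 higher and 3 lower (13.9%, against 12.0% of all genes and 19.9% of those above the median level). Lrpprc, which binds and stabilises mitochondrial messenger RNA, read 9.31, 9.46 and 9.57 in vehicle and 9.80, 9.76 and 9.84 in 4OHT and rose by 0.35 in log2 units (SE 0.073, adjusted p = 0.0256). Dmac2, a factor for the membrane arm of complex I, rose by 0.27 (adjusted p = 0.0242). The genes that fell were Cox18, which inserts a mitochondrially encoded subunit of complex IV into the inner membrane, by 0.25 (adjusted p = 0.0182), Cox19, a protein of copper handling for complex IV, by 0.20 (adjusted p = 0.0379), and Lyrm7, which serves the insertion of the Rieske protein, by 0.20 (adjusted p = 0.0398). These calls were mostly lost when an array was left out, although the log2 fold changes kept their sign. Calls over all genes also fell in such fits, from 2662 to between 1220 and 2326. Whether single wells carried the calls on these factors was not tested. With arrays left out in turn, Lrpprc was called only without vehicle well 3 (adjusted p = 0.0219), Dmac2 only without vehicle well 2 (0.0438) or vehicle well 3 (0.0465), Cox18 and Cox19 only without 4OHT well 3 (0.0311 and 0.0474) and Lyrm7 in none of the 6 fits (adjusted p = 0.0628 to 0.124). Centring the arrays ended the calls on Cox19 (adjusted p = 0.0543) and Lyrm7 (0.0632), as did a second quantile normalization (0.0545 and 0.0721).

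10 of the subunit genes that lie in mitochondrial DNA were measured, 7 of complex I (ND1 to ND6 and ND4L), CYTB of complex III and COX1 and COX3 of complex IV, and 0 were called (1 at an unadjusted limma p under 0.05). Their median log2 fold change was 0.07, with 9 above zero. COX1 read 14.01, 14.06 and 13.90 in vehicle and 14.08, 14.04 and 14.08 in 4OHT, with overlapping groups and a log2 fold change of 0.08 (SE 0.054, adjusted p = 0.429). ND6, the gene carried on the other strand of the mitochondrial genome, was the exception. It read 10.02, 10.01 and 9.94 in vehicle and 9.81, 9.84 and 9.84 in 4OHT, with no overlap and a log2 fold change of -0.16 (SE 0.044, adjusted p = 0.0708).

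**Figure D3:**
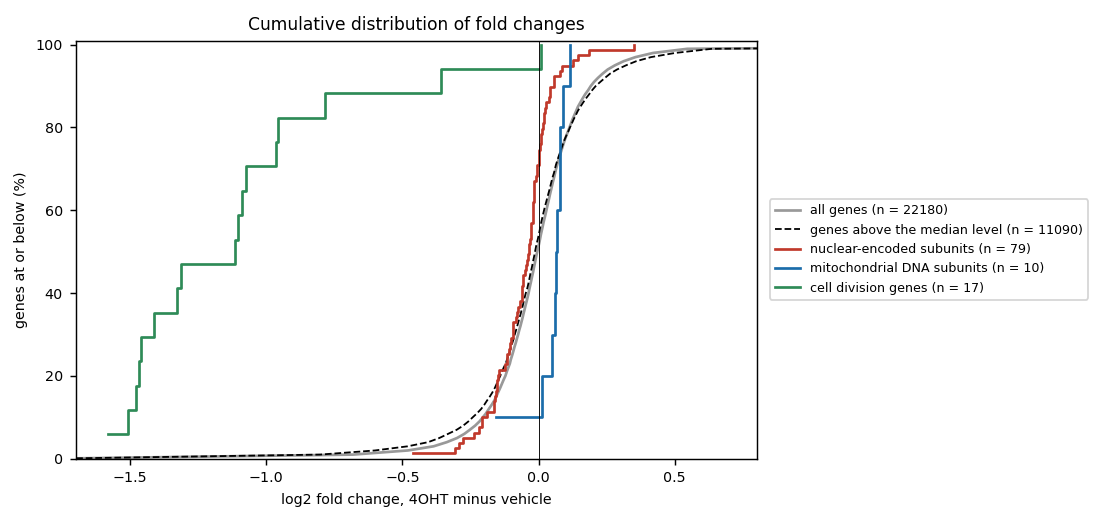
Cumulative share of genes (percent) at or below each log2 fold change (4OHT minus vehicle) for all 22180 genes, the 11090 above the median level, the 79 nuclear-encoded subunits, the 10 subunits encoded in mitochondrial DNA and 17 cell division genes. The subunit curve is steeper than that of all genes and crosses 50% at -0.03, while the curve of the cell division genes crosses it at -1.12.

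Among 20 genes for electron carriers and coenzyme Q synthesis, 2 were called higher and 1 lower, a share of 15.0% against 12.0% of all genes. Pdss2, which makes the isoprenoid tail of coenzyme Q, read 8.41, 8.44 and 8.40 in vehicle and 8.72, 8.68 and 8.70 in 4OHT and rose by 0.28 (SE 0.041, adjusted p = 0.00728), a call kept in all 6 fits without 1 array. Coq10a, a coenzyme Q binding protein, rose by 0.27 (adjusted p = 0.0175), and the call was lost without 4OHT well 1 or 4OHT well 2 (highest adjusted p = 0.0671). Etfb, part of the flavoprotein that delivers electrons from fatty acid oxidation, read 11.67, 11.67 and 11.66 in vehicle and 11.20, 11.26 and 11.46 in 4OHT. It fell by 0.36 (SE 0.072, adjusted p = 0.0223), and of the fits without 1 array only that without 4OHT well 3 kept the call (adjusted p = 0.00676, up to 0.0853 in the others). For Cycs, cytochrome c, the log2 fold change was -0.08 (adjusted p = 0.410).

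Of 25 regulators of mitochondrial biogenesis and of the mitochondrial genome, 2 were called higher and 0 lower, a share of 8.0% against 12.0% of all genes. At an unadjusted limma p under 0.05, 5 were higher and 1 lower. The lower gene was Gabpb1, a partner chain of GABP, at a log2 fold change of -0.13 (adjusted p = 0.142). Yy1 rose by 0.30 (SE 0.062, adjusted p = 0.0265) and Gabpb2, another partner chain of GABP, by 0.25 (SE 0.055, adjusted p = 0.0312). Of the fits without 1 array, both kept their calls only without 4OHT well 3 (adjusted p = 0.0167 and 0.0200). The coactivators Ppargc1a and Ppargc1b stood at log2 fold changes of 0.03 (95% interval -0.21 to 0.27) and 0.17 (adjusted p = 0.239). The factors Nrf1, Gabpa, Esrra and Tfam, the last of which packages mitochondrial DNA, had -0.03, 0.12, -0.02 and -0.00, with adjusted p from 0.179 to 0.991. Their 95% intervals ran from -0.17 to 0.11 for Nrf1 and from -0.12 to 0.12 for Tfam, and that of Esrra from -0.20 to 0.17.

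The remaining mitochondrial gene groups are to be read against the 12.0% called among all genes. Of 18 further enzymes of the tricarboxylic acid cycle and its entry 1 was called (5.56%), Idh2, which makes NADPH in the matrix, falling by 0.28 (SE 0.059, adjusted p = 0.0285), and the call held in the fits without 1 array only when vehicle well 3 was left out (adjusted p = 0.0427). Of 21 membrane, import and cristae proteins 0 were called (3 higher at an unadjusted limma p under 0.05), and the median log2 fold change was 0.01. Of 71 mitochondrial ribosomal proteins 1 was called higher (Mrpl13, 0.30) and 2 lower (Mrpl49, -0.27, and Mrps25, -0.23), a share of 4.23%. Without 1 array, Mrpl13 was called only without 4OHT well 3 or vehicle well 3 (adjusted p = 0.0419 and 0.0194), Mrpl49 only without 4OHT well 1 or 4OHT well 3 (0.0316 and 0.0494) and Mrps25 in no fit. A last list of 5 genes held inhibitors and supercomplex factors together with Mcu, of the mitochondrial calcium uniporter. Of these 0 were called (2 lower at an unadjusted limma p under 0.05, Higd2a and Mcu). Atpif1, the inhibitor of the ATP synthase, had -0.13 (SE 0.064, adjusted p = 0.244).

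The wells differed in their subunit level. The mean log2 expression over the 79 subunits was 10.19, 10.22 and 10.22 in the vehicle wells and 10.12, 10.14 and 10.20 in the 4OHT wells. 4OHT well 3 lay inside the vehicle range, so the groups overlapped, and the difference of the means was -0.06 with a pooled SD between wells of 0.034. By complex, the well means of complexes II and III did not overlap between groups, but the margins were narrow. In complex II vehicle well 1 read 10.8549 and 4OHT well 3 10.8475. In complex III vehicle well 3 read 10.6575 and 4OHT well 3 10.6554. The complex III mean includes Uqcrc1 at a log2 fold change of -0.46, while the median over its 7 genes was -0.03. The well means of complexes I, IV and V overlapped through 4OHT well 3. This well was the highest of the 4OHT wells for 52 of the 79 subunits (65.8%), against 39.4% of all genes, and the lowest for 8 (10.1%). Without it the median log2 fold change of the subunits was -0.06, 60 of 79 lay below zero and 3 were called, Uqcrc1, Cox7a1 and Atp5h. The part of this well in the results was not tested.

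**Figure D4:**
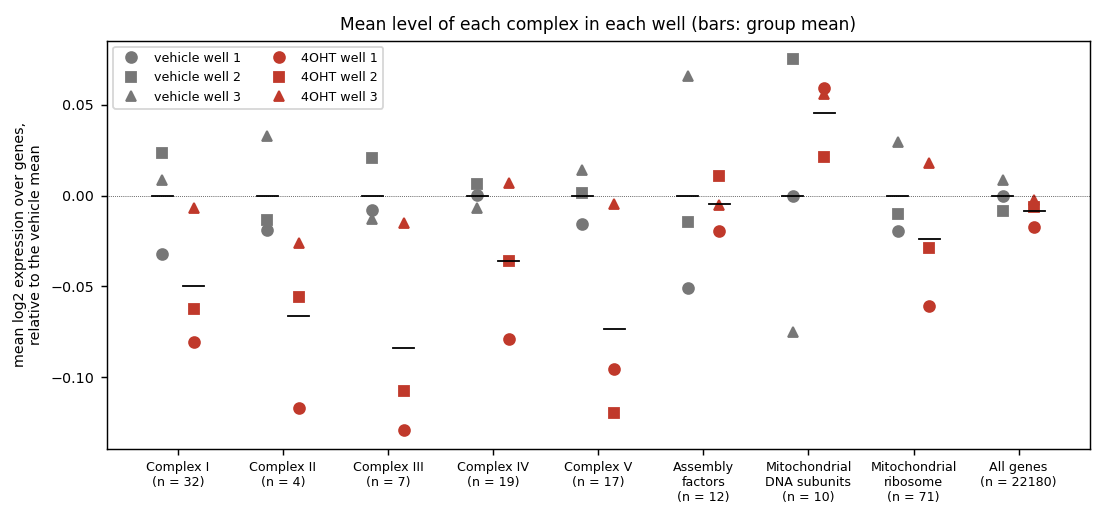
Mean log2 expression over the genes of each group in each well, relative to the vehicle mean of that group, with bars for the group means. In complexes I to V the triangle of 4OHT well 3 lies above the other 4OHT wells and within or near the vehicle range.

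Cell division genes moved with the treatment: 16 of 17 fell and 0 rose, with a median log2 fold change of -1.12, and their mean per well was 9.57, 9.56 and 9.64 in vehicle and 8.49, 8.39 and 8.54 in 4OHT. Of all genes, 12.0% were called in either direction and 6.62% lower, which is the background for these lists. Of 8 fibroblast markers 1 was called, Col3a1, which fell by 0.29 (adjusted p = 0.0094), and the mean over the list was 12.39 to 12.42 in vehicle and 12.29 to 12.31 in 4OHT. Of 6 smooth muscle and pericyte markers 4 fell, with well means of 12.32 to 12.34 against 11.89 to 11.95. Of 5 endothelial markers 2 were higher and 2 lower (means 7.02 to 7.08 against 6.89 to 6.93), of 6 epithelial markers 1 was lower (6.63 to 6.68 against 6.54 to 6.64), of 7 leukocyte markers 1 was higher (6.56 to 6.66 against 6.56 to 6.70) and of 4 mesothelial markers 1 was higher and 1 lower (10.70 to 10.74 against 10.64 to 10.71). The part of these differences in the values of the subunit genes was not tested. In bulk RNA, fewer cells of a type and less RNA per cell cannot be told apart.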

How the data were processed

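Total RNA of 6 wells was labelled from 100 ng with an oligo(T) primer and hybridised to single-colour Affymetrix arrays, per the labels' protocols. The deposited values are log2 expression per probe set, made with oligo and RMA, and limma is also listed, per the submitters' processing notes, which give no versions. The authors' genome build is not given in these sources. RMA equalizes the arrays by quantile normalization, which removes a shift common to most genes, and compresses the changes of dim genes.

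Of 41345 probe sets, 23521 had 1 symbol in the platform annotation, 1814 several and 16010 none. Only those with 1 symbol were used, 23328 of which matched RefSeq (GRCm38.p6) by gene number. The probe set with the highest mean stood for a gene, leaving 22180 genes. 10 members had several probe sets, and in 5 (Atp5e, Atp5g2, Cox7b, Ndufa11 and Sdhaf1) these differed in sign. No level was set against that of another gene.

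Vehicle (n = 3) and 4OHT (n = 3) were compared by limma 3.58.1 under R 4.3.3, using lmFit and eBayes as a two-sided test with 6.70 degrees of freedom. P-values were adjusted over all genes by Benjamini-Hochberg, and an adjusted p under 0.05 was a call. The fit was tested on simulated data. No array repeated another, Pearson's r between arrays was 0.995 to 0.998 across genes, and array medians were 7.44 to 7.47. The number of arrays limits the precision.

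Named were all called members, the 3 of each complex with the largest change, all isoform and complex II genes, up to 4 called genes of smallest p from each other list, and Atpif1, Cycs, Ppargc1a, Ppargc1b, Nrf1, Gabpa, Tfam and Esrra. Other genes were named after their values were seen. These were further members (among them Ndufa8, Ndufc1, Atp5a1, Atp5b, Atp5c1, Atp5md, Sdhaf2, Uqcrfs1 and the core subunits of complex I). Outside the members they were Lyrm7, Cyc1, COX1, ND6, Gabpb1, Higd2a and Mcu. The members and lists were chosen with earlier results of these data known. The alternatives were a replicate block, centring, a second quantile normalization, averaging a gene's probe sets, a filter keeping genes above the median level, array weights, eBayes with a trend and robust variances, an adjusted p under 0.01, other member sets, and leaving out each array.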

Additional observations from a re-analysis of the deposited data

How the results depend on the processing

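The 2662 genes called became 1568 with the replicate block, 4123 with the trended and robust eBayes, 1010 at an adjusted p under 0.01 and 1220 to 2326 with 1 array left out. The 3 subunit genes called lower became 12 among genes above the median level, 11 with the trended and robust eBayes, 0 at an adjusted p under 0.01 and 0 to 3 with 1 array left out, and the 0 called higher became 2, 2, 0 and 0. The same replicate numbers showed little pairing of the wells. Their deviations from the group means correlated at 0.062, -0.024 and 0.043, against -0.076 to 0.031 for different numbers. Vehicle wells 1 and 3 correlated best with the 4OHT well of their own number, and vehicle well 2 with another number. With that block 1 subunit was called lower (Atp5o) and 1 higher (Cox8b), and none of the 3 was. The second quantile normalization ended the call on Uqcrc1 (adjusted p = 0.0516). The median over the subunits kept its sign, from -0.06 without 4OHT well 3 to -0.01 with centred arrays, where 48 of 79 lay below zero.

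Values near zero changed sign. Centring gave Atp5g2 0.0043, Cox7a2 0.015, Esrra 0.0061 and Tfam 0.020, and the second quantile normalization gave Cox7a2 0.019, Esrra 0.0038 and Tfam 0.025. With 1 array left out Cox6a2 ran from -0.019 to 0.076, Cox7a2 from -0.018 to 0.013, Esrra from -0.060 to 0.068, Nrf1 from -0.073 to 0.021, Ppargc1a from -0.068 to 0.091, Sdha from -0.00077 to 0.028, Sdhd from -0.062 to 0.025 and Tfam from -0.032 to 0.038. The cause was not tested. With 3 wells per group, changes of the size seen here lie near the limit of the test, and the signal of a probe set against background was not assessed.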
